A study of Mus musculus with 2 samples.

Results

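The 43 genes described here carry out DNA replication and cell division, and their promoters and surroundings were examined in accessible chromatin of the postnatal mouse cortex. They were taken from a list of cell cycle gene symbols, all 43 of which were found among the 21938 protein-coding genes of the mouse annotation GENCODE M21. They comprise 13 genes of DNA replication and nucleotide supply, 11 cyclins, kinases and their regulators, 13 genes of the spindle, checkpoint, kinetochore and cytokinesis, 2 of chromosome structure and 4 transcription factors. Chromatin was profiled by DNase-seq, in which DNase I releases accessible DNA for sequencing. The tissue was left cerebral cortex from 2 mice, both female, 14 days old and of the strain B6CASTF1/J, which is the F1 hybrid of C57BL/6J and CAST/EiJ. Each animal gave 1 library, numbered in the labels as biological replicate 1 or 2 under 1 donor record, and both libraries form 1 untreated group. No comparison between conditions exists, so no p-value was computed, and ± gives the SD over the 2 libraries.

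In dividing cells the MCM helicase is loaded onto DNA in G1, cyclin-dependent kinases drive S phase and mitosis, and the spindle and kinetochore separate the chromosomes. Many of these genes are transcribed in a cell cycle dependent way: E2F factors act on genes of S phase, and the DREAM and MuvB complexes act on G2 and mitosis genes through a promoter element called CHR, often together with NF-Y at CCAAT boxes. Cortical neurons leave the cell cycle before birth, while glial precursors still divide in the young cortex. The share of dividing cells was not measured here, and in bulk tissue a site open in few cells and a site weakly open in many cannot be told apart.

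The libraries held 90059 and 175597 peaks in replicates 1 and 2, with median deposited signals of 0.678 and 0.463. Promoters of the neuronal markers were accessible in both libraries for 8 of 9 genes, of astrocyte markers for 4 of 5, of oligodendrocyte precursor markers for 3 of 5, of microglia markers for 3 of 7 and of endothelial markers for 0 of 5. Of the markers of radial glia and intermediate progenitors 4 of 7 were accessible, namely Pax6, Sox2, Hes1 and Hes5. Nes and Neurog2 each had a promoter peak in 1 library, and Eomes had none in either. Of all protein-coding genes 62.7% had a promoter peak in both libraries, and counts such as 3 of 5 or 4 of 7 lie near that share. The liver markers had 0 of 3 accessible promoters and the erythroid markers 1 of 3. How much each cell type added to the values below was not tested.

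Every cell cycle gene had an accessible promoter in both animals. Accessible here means that both libraries had a peak overlapping the window from 1 kb before to 1 kb after an annotated start. This held for 43 of 43 genes, beside 62.7% of all protein-coding genes. Most of these promoters are rich in CpG (37 of 43, with a CpG ratio of at least 0.6 and a GC content of at least 50% around the most 5′ start), and among all CpG-rich protein-coding promoters 93.5% were accessible. The exceptions to CpG richness were Cdk1, Cdc25c, Mcm2, Mcm7, Tyms and Tk1, and these 6 promoters were accessible as well. Among all protein-coding genes 13757 of 21938 were accessible, and 9108 of these belonged to the 9738 with CpG-rich promoters, so accessibility was less common without CpG richness. All 43 were also found in the smaller, stricter peak list of each library, and the share of all protein-coding genes in that list is not given here.

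The promoter peaks were high in both libraries. The highest peak in the window of each gene had a median signal of 3.39 in replicate 1 and 3.53 in replicate 2, and the mean of both libraries had a median of 3.60 over the 43 genes. The same median was 2.33 over all accessible protein-coding genes (2.52 in replicate 1 and 2.13 in replicate 2, the accessible medians used below) and 2.84 over those with CpG-rich promoters. With all peaks in the window summed, the difference was smaller, with a median of 3.76 for the members and 3.38 for all accessible genes. The median for the 37 CpG-rich members was 3.71, and 23 of these 37 lay above the CpG-rich median. The promoter peak reached the highest decile of all peaks at 34 genes in replicate 1, at 36 in replicate 2 and at 34 in both, beside 31% of all protein-coding genes. For the CpG-rich members this count was 30 of 37, beside 59.6% of all CpG-rich genes with a promoter peak in both libraries.

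The genes differed widely in signal, and both animals ranked them much alike. The mean signal ran from 0.852 at Tyms to 8.80 at Mcm5, and the middle 50% of the genes lay between 2.38 and 4.60. The Spearman correlation between the libraries was 0.917 across the 43 genes, which share libraries and are not independent replicates. The log2 ratio of replicate 2 to replicate 1 had a median of -0.19, close to the -0.18 of all accessible genes, and ran from -0.84 at Cenpe to 0.51 at Mcm3. No gene differed by 2-fold or more. By role, the median signal was 4.05 for spindle, checkpoint, kinetochore and cytokinesis genes, 3.71 for replication and nucleotide supply, 3.36 for cyclins and kinases, and 2.53 for the 4 transcription factors.

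**Figure D1:**
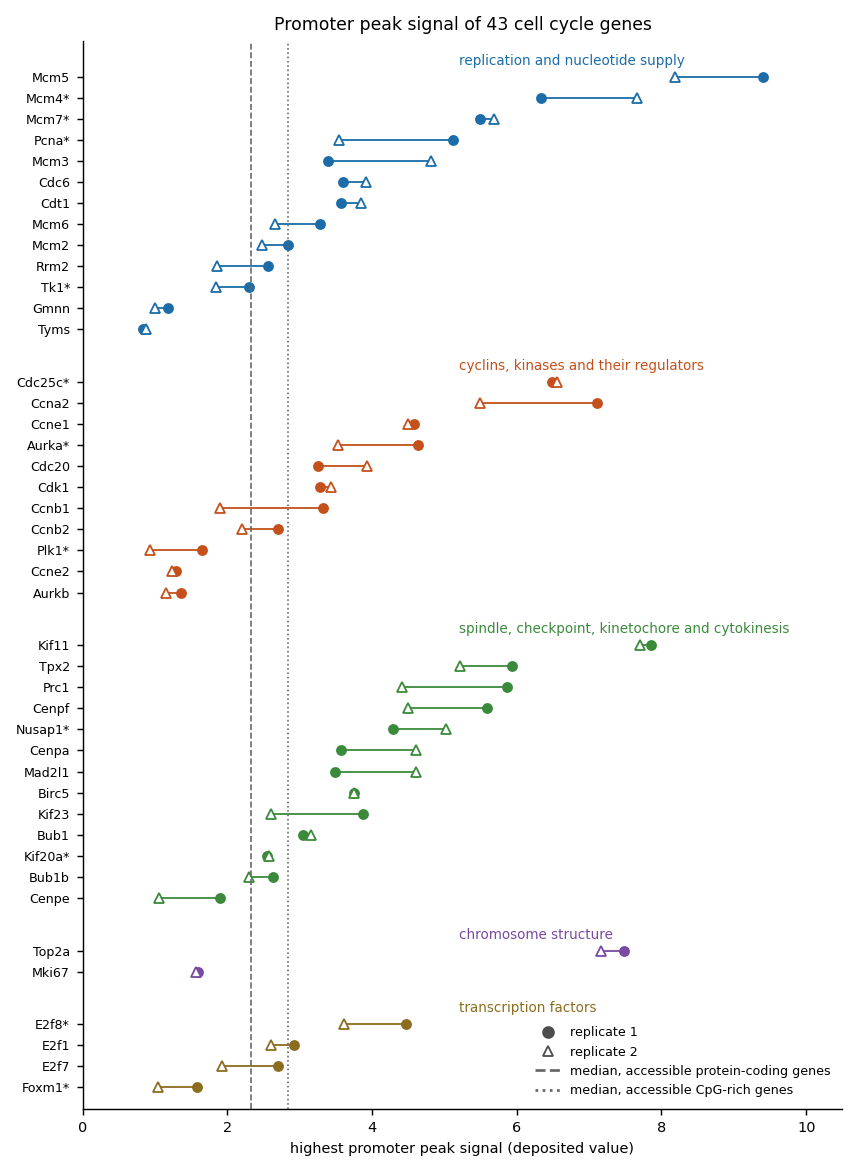
Highest promoter peak signal (deposited value, x axis) of each of the 43 genes in replicate 1 (filled circles) and replicate 2 (open triangles), grouped by role, with an asterisk where the window also holds a start of another gene. Dashed and dotted lines mark the medians of accessible protein-coding genes (2.33) and of accessible CpG-rich genes (2.84); Mcm5, Kif11 and Top2a lie far to the right of both in both libraries, and Tyms lies lowest.

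The promoter sequences were searched for 3 motifs of cell cycle transcription and 2 general promoter motifs, on both strands, from 250 bp before to 50 bp after the most 5′ start. The motifs were CHR (TTTGAA or TTCGAA, the latter reading alike on both strands), CCAAT, E2F (TTTCCCGC, TTTCGCGC, TTTGCCGC or TTTGGCGC), the SP/KLF motif GGGCGG and the ETS motif CCGGAAG. A match is a run of letters in the C57BL/6J reference and not a bound site; the CAST/EiJ allele was not searched. The libraries also hold footprints, short stretches that the authors called as protected from DNase I. In 9 of the 43 promoters a CHR, CCAAT or E2F match lay wholly inside a footprint of both libraries, beside 3.97% of accessible protein-coding genes, and 6 of these promoters are shown here because they carry such a match. They were taken in order of promoter signal, leaving out Cdc25c (6.52 in the mean), which is not printed, and the lower Aurkb and Gmnn. They are the MCM subunit gene Mcm5 (chr8:75109319-75109618 on the plus strand), the spindle motor gene Kif11 (chr19:37376153-37376452 on the plus strand), the topoisomerase gene Top2a (chr11:99024140-99024439 on the minus strand), the centromeric histone gene Cenpa (chr5:30666527-30666826 on the plus strand), the checkpoint kinase gene Bub1 (chr2:127831816-127832115 on the minus strand) and the cyclin gene Ccnb1 (chr13:100786521-100786820 on the minus strand). Each is printed 5′ to 3′ in the direction of the gene from the mouse reference genome GRCm38.p6 (mm10), with capitals for the matches that lay inside a footprint of both libraries.
Mcm5: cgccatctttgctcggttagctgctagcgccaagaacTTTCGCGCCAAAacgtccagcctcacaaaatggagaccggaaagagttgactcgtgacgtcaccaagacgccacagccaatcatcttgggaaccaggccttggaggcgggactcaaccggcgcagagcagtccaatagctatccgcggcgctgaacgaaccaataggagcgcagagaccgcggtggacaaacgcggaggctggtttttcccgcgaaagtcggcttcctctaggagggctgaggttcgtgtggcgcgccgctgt
Kif11: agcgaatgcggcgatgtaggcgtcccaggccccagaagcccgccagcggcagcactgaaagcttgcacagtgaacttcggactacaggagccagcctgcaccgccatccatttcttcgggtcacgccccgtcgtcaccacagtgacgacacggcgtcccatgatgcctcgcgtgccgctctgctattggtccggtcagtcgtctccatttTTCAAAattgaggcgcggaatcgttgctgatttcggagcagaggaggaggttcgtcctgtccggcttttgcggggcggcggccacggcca
Top2a: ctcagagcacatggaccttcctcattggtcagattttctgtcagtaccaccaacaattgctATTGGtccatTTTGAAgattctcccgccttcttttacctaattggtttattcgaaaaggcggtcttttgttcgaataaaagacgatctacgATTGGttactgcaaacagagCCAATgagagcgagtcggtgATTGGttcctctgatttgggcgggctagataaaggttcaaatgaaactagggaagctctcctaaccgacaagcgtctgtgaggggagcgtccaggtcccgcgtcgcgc
Cenpa: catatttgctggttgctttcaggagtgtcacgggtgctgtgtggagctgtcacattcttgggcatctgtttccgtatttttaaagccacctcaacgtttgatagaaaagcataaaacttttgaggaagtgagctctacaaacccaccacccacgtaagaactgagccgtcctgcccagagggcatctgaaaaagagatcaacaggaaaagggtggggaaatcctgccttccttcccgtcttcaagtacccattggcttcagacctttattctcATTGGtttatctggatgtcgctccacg
Bub1: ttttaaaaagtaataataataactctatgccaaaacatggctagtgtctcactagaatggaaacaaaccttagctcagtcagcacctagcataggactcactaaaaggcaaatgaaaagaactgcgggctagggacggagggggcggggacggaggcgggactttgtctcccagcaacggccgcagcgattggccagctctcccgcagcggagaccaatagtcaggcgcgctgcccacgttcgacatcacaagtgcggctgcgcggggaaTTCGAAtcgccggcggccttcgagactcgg
Ccnb1: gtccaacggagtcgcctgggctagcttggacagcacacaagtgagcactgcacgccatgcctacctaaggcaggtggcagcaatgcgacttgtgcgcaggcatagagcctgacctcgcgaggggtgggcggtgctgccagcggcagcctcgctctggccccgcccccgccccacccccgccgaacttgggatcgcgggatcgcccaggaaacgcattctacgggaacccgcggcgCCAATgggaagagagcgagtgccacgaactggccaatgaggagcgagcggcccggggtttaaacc

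Genes of DNA replication and nucleotide supply held both the highest and the lowest promoter of all members. Mcm5, a subunit of the replicative MCM helicase, had signals of 9.41 and 8.18 in replicates 1 and 2 (8.80 ± 0.867), with the leading peak centred 138 bp upstream of its start in both animals. The helicase subunit gene Mcm4 had 6.33 and 7.66, and Mcm7 had 5.49 and 5.68. By the highest peak in the window, these 3 genes lay above every other replication gene in both libraries. The leading peak of Mcm7 was nearer to the start of Ap4m1, however. Its highest peak nearest to a start of Mcm7 had 4.03 and 3.17, which would not keep this rank. By the highest peak in the window the remaining MCM genes were lower, with 3.39 and 4.82 at Mcm3, 3.28 and 2.65 at Mcm6, and 2.84 and 2.48 at Mcm2. The 6 subunit genes of 1 helicase thus ranged from 2.66 to 8.80 in their means.

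Licensing factors and the clamp took middle ranks. Cdc6, which loads the helicase, had 3.60 and 3.92, and Cdt1, its partner in loading, 3.58 and 3.84. Pcna, the sliding clamp of DNA polymerases, had 5.12 and 3.55. Gmnn, the inhibitor of Cdt1, was the second lowest of all members with 1.18 and 1.00, and it was the only gene whose leading peaks did not overlap between the libraries. Its window held 2 peaks in each library, of 1.18 and 1.09 in replicate 1 and of 0.732 and 1.00 in replicate 2 at overlapping places, so their order changed.

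The 3 genes of nucleotide supply were all below the accessible median in replicate 2. Rrm2, the small subunit of ribonucleotide reductase, had 2.57 and 1.85. The thymidylate synthase gene Tyms had 0.832 and 0.871, the lowest promoter of the 43, yet still at the 60.5th and 78.0th percentiles of all peaks of each library. Tk1, thymidine kinase, had 2.30 and 1.85, but these peaks were centred 996 and 976 bp downstream of its start. The peak at the start of Tk1 reached 1.09 and 1.03, and in windows of 500 bp its mean was 1.06 in place of 2.08.

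Among cyclins, kinases and their regulators, Cdc25c and Ccna2 had the highest promoters and the mitotic kinases Aurkb and Plk1 were among the lowest. Cdc25c, a phosphatase that activates Cdk1, had 6.49 and 6.55, and Ccna2, the cyclin of S phase and G2, had 7.11 and 5.49. Ccne1, a cyclin of the entry into S phase, had 4.59 and 4.50, whereas its paralog Ccne2 had 1.29 and 1.24. The ranges of these 2 paralogs did not overlap. Cdk1, the kinase of mitotic entry, had 3.28 and 3.43, near the median of all members.

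The B-type cyclins and the mitotic kinases were lower than Cdc25c and Ccna2. Ccnb1 had 3.33 and 1.90, and Ccnb2 had 2.70 and 2.20. Cdc20, an activator of the anaphase-promoting complex, had 3.26 and 3.94. Of these, Ccnb1 alone lay above the accessible median in replicate 1 and below it in replicate 2. Aurka, a centrosomal kinase, had 4.63 and 3.53, while Aurkb, the kinase of the chromosomal passenger complex, had 1.36 and 1.16. Plk1, another mitotic kinase, had 1.66 and 0.931, so Aurka lay above both in each library. The leading peaks of Aurka and Plk1 were nearer to the start of a neighbouring gene in both libraries.

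Spindle, checkpoint, kinetochore and cytokinesis genes had the highest median of the larger roles. Of these 13 genes, 12 reached the highest decile of peaks in both libraries. All 13 had CpG-rich promoters, and the share was 59.6% among all CpG-rich genes with a promoter peak in both libraries. Kif20a was counted with a signal of 2.54 in replicate 1, equal to the limit of that decile. Nusap1 was counted through a sole peak that was nearer to the start of Oip5. Kif11, the kinesin that pushes spindle poles apart, had 7.85 and 7.71 (7.78 ± 0.104). Tpx2, a spindle assembly factor, had 5.93 and 5.22, and Prc1, which bundles antiparallel microtubules at the midzone, had 5.86 and 4.42. All 3 exceeded the accessible median more than the libraries differed from each other. The kinetochore gene Cenpf followed with 5.59 and 4.50.

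The other genes of this role ranged from middle to low signals. Cenpa, the histone H3 variant of centromeres, had 3.58 and 4.61, and the checkpoint gene Mad2l1 had 3.48 and 4.61. Birc5, the passenger protein survivin, had 3.75 in both libraries, and Kif23, a kinesin of cytokinesis, had 3.88 and 2.61. These 4 lay above the accessible median in both libraries. The checkpoint kinase gene Bub1 had 3.05 and 3.16, and its paralog Bub1b had 2.63 and 2.29. Cenpe, a kinetochore kinesin, was the lowest of the 13 with 1.90 and 1.06, and it was the only one of them outside the highest decile.

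The 2 genes of chromosome structure lay at opposite ends. Top2a, which untangles replicated DNA, had 7.48 and 7.16 (7.32 ± 0.229), rank 3 of 43. Mki67, the gene of the proliferation antigen Ki-67 that coats mitotic chromosomes, had 1.60 and 1.57 (1.58 ± 0.0157), and its rank was 36 of 43. The leading peaks of Mki67 were centred 160 and 170 bp upstream of its start in both libraries. Both genes are widely used as markers of proliferation, and their promoter signals differed by more than the spread between the libraries.

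The transcription factors were led by the repressor gene E2f8, with 4.47 and 3.61. E2f1, the activating E2F, had 2.92 and 2.60, and the repressor E2f7 had 2.70 and 1.92. Foxm1, which acts on mitotic genes, was lowest with 1.58 and 1.05. Foxm1 lay below the accessible median in both libraries, while E2f8 and E2f1 lay above it in both.

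Some of these windows also hold the start of a neighbouring gene, so the peak cannot be assigned to the member by position alone. This was so for 11 of 43 genes (25.6%), a share near the 26.4% of all protein-coding genes, and 8 of them had a protein-coding neighbour. The nearest starts were those of Brd8 (12 bp from a start of Kif20a), Rhno1 (56 bp from Foxm1), Afmid (57 bp from Tk1), Cstf1 (146 bp from Aurka), Ap4m1 (160 bp from Mcm7) and Oip5 (171 bp from Nusap1). Prkdc lay 466 bp from Mcm4 and Gm3550 622 bp from Cdc25c, which also had the non-coding gene 2010110K18Rik at 276 bp. The others were non-coding: Gm15489, antisense, 38 bp from Plk1, AV099323, antisense, 43 bp from Pcna, and Gm2788, 259 bp from E2f8. The Mcm7 window also holds starts of the microRNA genes Mir106b, Mir93 and Mir25, which lie in Mcm7.

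For 5 of these genes the leading peak was closer to the neighbour's start in both libraries: Mcm7, Nusap1, Aurka, Foxm1 and Plk1. At Mcm7 the leading peak was centred 21 and 11 bp from the start of Ap4m1, and the highest peak nearest to a start of Mcm7 had 4.03 and 3.17 (3.60 in the mean). Nusap1, a spindle protein gene, had 4.28 and 5.02, and this sole peak was centred at position -113 from its own start and 112 bp from that of Oip5. Aurka and Nusap1 had no peak nearest to an own start in either library. Plk1 and Foxm1 had such a peak in replicate 2 alone, of 0.294 and 0.413. By that stricter reading 39 of 43 genes were accessible in both libraries. The same share of all protein-coding genes is not given here, so whether 39 is many or few cannot be read from this count. At Kif20a, a kinesin gene of cytokinesis, the leading peaks of 2.54 and 2.58 were nearest to Kif20a itself, and separate peaks of 2.21 and 1.90 were centred 17 and 10 bp from the start of Brd8.

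At Mcm4 a separate peak of 2.14 and 2.94 was centred 5 bp from the start of Prkdc, and the leading peak lay 91 bp from the start of Mcm4. The leading peaks of Pcna, E2f8 and Tk1 were nearest to their own starts in both libraries, and that of Cdc25c was as near to 2010110K18Rik as to Cdc25c in replicate 1. The median signal was 4.08 for the 11 genes with a neighbour and 3.30 for the 32 without. All of these 32 were accessible in both libraries, as were the 11. The accessible share of all protein-coding genes without a neighbour is not given here.

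The leading peaks sat close to the starts. Their midpoints had a median distance of 60 bp in replicate 1 and 75 bp in replicate 2 from the nearest own start, and 41 and 42 of 43 lay within 200 bp. The exceptions were Tk1 in both libraries and Kif11 in replicate 1, at 222 bp. Peaks were taken only from windows around the annotated starts, and the same distances for all accessible genes are not given here. Whether the members differ from other genes in this was not tested. The peaks had a median width of 220 bp in both libraries, and 24 and 21 genes had a sole peak in the window. The median share of the promoter window at a q-value of at most 0.05 for DNase cleavage was 15.1% and 15.9%, beside 17.2% and 21.2% for all accessible genes. The members were thus lower in this share and higher in peak signal.

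Footprints were present in every promoter, as in nearly all accessible ones. All 43 genes had at least 1 footprint inside a promoter peak in both libraries, beside 96.5% of accessible protein-coding genes, a share near the background. Member promoters held 217 footprints in replicate 1 and 252 in replicate 2, with medians of 5 and 6 a gene. Of these footprints 88.5% and 82.1% lay within 200 bp of an own start and 77.9% and 77.8% lay upstream of it. The same shares for all accessible genes are not given here. Of the footprints of replicate 1, 69.6% overlapped a footprint of replicate 2. Mad2l1 was the only gene with no such overlap: its peak was 60 bp wide with 1 footprint in replicate 1 and 300 bp wide in replicate 2, where its window held 8 footprints.

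CHR matches were found in 18 of 43 member promoters (41.9%), beside 18% of all protein-coding promoters and 12.1% of accessible CpG-rich ones. They were distributed by role: 7 of 11 cyclin and kinase genes, 6 of 13 spindle and kinetochore genes, both genes of chromosome structure and 2 of 4 transcription factors had a match, but only 1 of 13 replication genes, Mcm2. The genes with a match were Cdk1, Ccnb2, Cdc20, Cdc25c, Aurka, Aurkb, Plk1, Bub1, Bub1b, Kif11, Kif23, Cenpf, Prc1, Mki67, Top2a, E2f8, Foxm1 and Mcm2. The matches lay near the start: 17 of 26 (65.4%) were centred within 50 bp of it, beside 23.0% of the 2221 CHR matches of accessible protein-coding genes. Their median position was -20.5 bp from the start, and that of all accessible genes -137.5 bp.

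E2F matches were found mainly in replication genes. They were found in 10 of 43 promoters (23.3%), beside 2.79% of all protein-coding promoters and 4.98% of accessible CpG-rich ones. Of the 13 replication genes 7 had a match, namely Mcm3, Mcm4, Mcm5, Mcm6, Cdc6, Cdt1 and Gmnn, as did E2f1, E2f7 and Cdk1. None of the 13 spindle and kinetochore genes had a match, and Cdk1 was the only gene with both an E2F and a CHR match. The 3 replication genes Pcna, Tyms and Tk1 had no CHR, CCAAT or E2F match in this window, and neither did Mcm7, Ccna2, Ccne1, Mad2l1, Birc5 and Nusap1.

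CCAAT matches were the most frequent, in 33 of 43 promoters (76.7%), beside 39% of all protein-coding promoters and 38.4% of accessible CpG-rich ones. All 18 promoters with a CHR match also had a CCAAT match. The pair was thus found in 18 of 43 member promoters (41.9%), beside 6.23% of accessible protein-coding promoters. Of those accessible promoters 14.3% had a CHR match, with or without CCAAT. The general motifs stood closer to the background: the SP/KLF motif was found in 32 of 43 promoters (74.4%), beside 43% of all protein-coding promoters but 71.7% of accessible CpG-rich ones. The ETS motif was found in 9 of 43 (20.9%), beside 10.8% of all and 19.5% of accessible CpG-rich promoters.

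**Figure D2:**
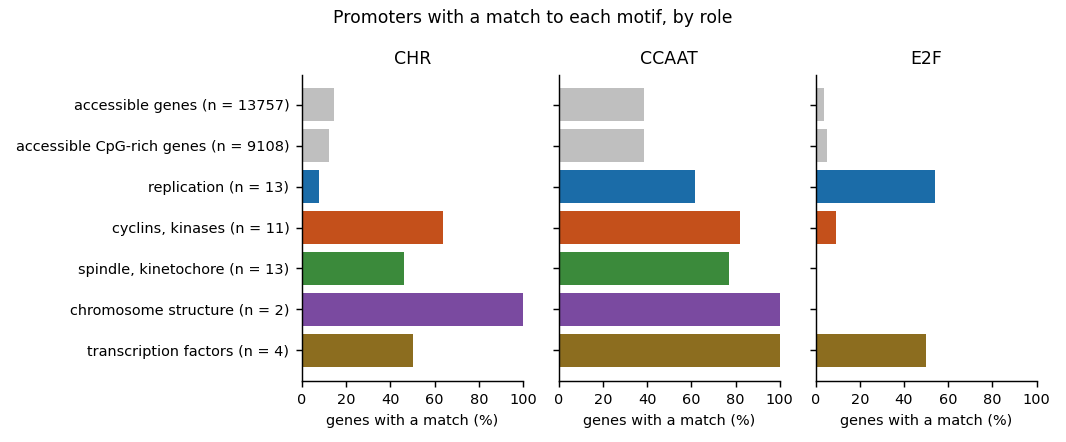
Share of promoters with at least 1 match to the CHR, CCAAT or E2F motif (x axis, percent) for accessible genes, accessible CpG-rich genes (grey) and the members by role, with the number of genes in parentheses. The CHR bar is long for cyclins and kinases (7 of 11) and short for replication genes (1 of 13), and the E2F bar is the reverse (1 of 11 and 7 of 13).

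Few of these matches lay in footprints of both animals. A CHR match lay wholly inside a footprint of both libraries in 4 promoters, Kif11, Top2a, Bub1 and Aurkb, beside 0.254% of accessible protein-coding genes (35 of 13757). A CCAAT match did so in 5 promoters, Top2a, Cdc25c, Cenpa, Ccnb1 and Gmnn, beside 3.31%. An E2F match did so in 1 promoter, Mcm5, beside 0.552%. The shares of accessible CpG-rich genes were 0.329% for CHR, 4.08% for CCAAT and 0.780% for E2F. Among genes with a CHR match, 4 of 18 members and 35 of 1974 accessible genes had it in such footprints. For CCAAT these counts were 5 of 33 and 455 of 5312. For E2F they were 1 of 10 and 76 of 547, so the member share was not above that of accessible genes. Of all matches in member promoters, 4 of 26 CHR, 8 of 65 CCAAT and 2 of 17 E2F matches were inside footprints of both libraries.

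The footprinted matches sat at different places in each promoter. At Mcm5 a pair of overlapping E2F matches on opposite strands, at positions -213 to -202 from the start, lay in 1 footprint of each library, while a further E2F match ending at position -1 lay in none. At Top2a 1 CHR match at -179 to -174 and 4 CCAAT matches were inside footprints of both libraries, and the CHR match at -23 to -18 was not. At Kif11 the CHR match lay at -40 to -35, in a footprint 32 bp wide in each library, and in replicate 1 this footprint lay outside the called peak. At Bub1 and Aurkb the CHR match, of the form TTCGAA, lay just downstream of the start, at positions 20 to 25 and 1 to 6. Aurkb thus had a footprinted match in a promoter of low signal, 1.36 and 1.16.

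**Figure D3:**
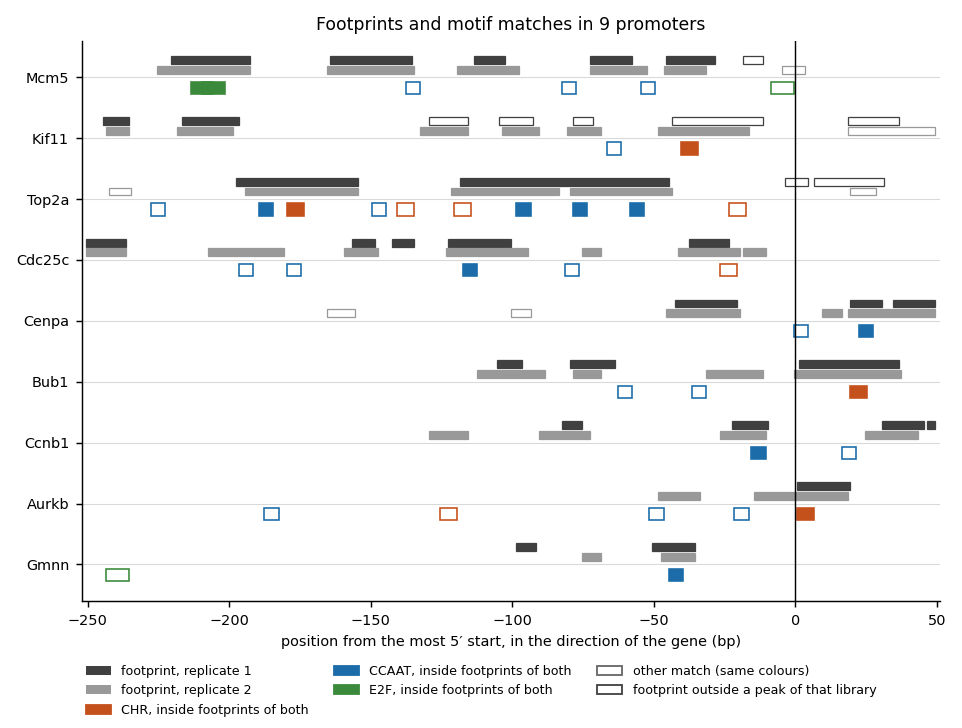
Footprints of replicate 1 (dark grey) and replicate 2 (light grey) and matches to CHR, CCAAT and E2F (coloured boxes) in the 9 promoters with a match inside a footprint of both libraries, by distance from the most 5′ start (x axis, bp). Filled coloured boxes lie in footprints of both libraries and open ones do not; open grey boxes are footprints outside a called peak of that library, and Top2a has the most filled boxes, 5.

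Away from the promoters, 171 distinct accessible sites found in both libraries lay within 50 kb of a start of a member and over 1 kb from any start. Each gene had a mean of 4.09 such distal sites, beside 3.21 for all protein-coding genes and 3.89 for those with CpG-rich promoters. Both the members and the CpG-rich genes had a median of 5 annotated starts, and all protein-coding genes had 3. Counted from the most 5′ start alone, the means were 3.56 for the members and 2.59 for all protein-coding genes. Of the 171 sites 93 were intergenic, 64 in introns and 14 in exons, and their median signal was 1.06. The median was 0.709 for all 52908 shared distal sites, which were not limited to 50 kb from a gene, so the sets are unlike. For 60 of the 171 sites the nearest protein-coding start was that of a member, a mean of 1.40 a gene beside 1.57 for all protein-coding genes. The higher count within 50 kb thus did not hold for the sites nearest to the genes.

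The sites were spread unevenly. Aurkb had the most, 16, followed by Cenpa with 10 and Kif23 and Mcm2 with 9 each, but only 4, 1, 1 and 0 of these were nearest to the gene. Cenpf, Ccne1, Mcm5, Cdc6 and Top2a had 8 each. All 8 at Cenpf and 6 at Ccne1 were nearest to the gene itself, whereas none at Top2a was. Cdc20, Mcm4 and Prc1 had no distal site, although their promoters were in the highest decile of peaks in both libraries.

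**Figure D4:**
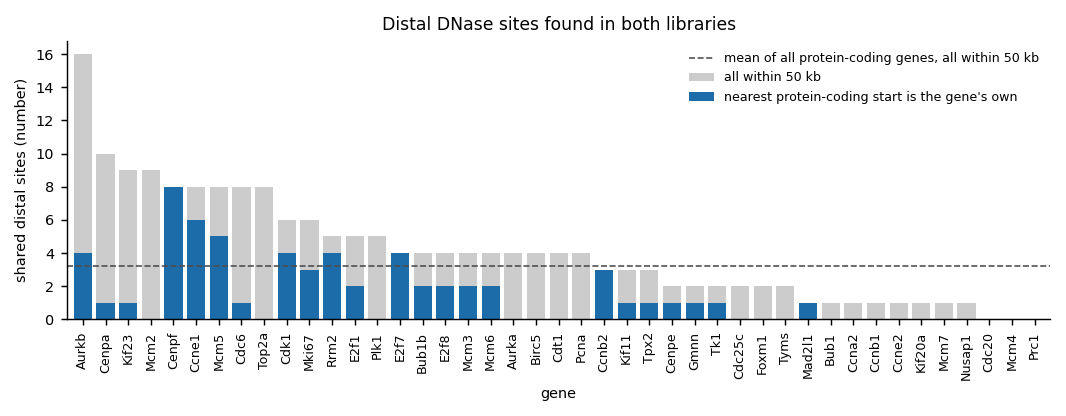
Number of distal accessible sites found in both libraries within 50 kb of each gene (grey bars), and the part whose nearest protein-coding start is the gene's own (blue). Aurkb has the tallest bar (16) with 4 nearest to itself, all 8 at Cenpf are its own, and the dashed line marks the mean of all protein-coding genes, 3.21.

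In 7 of 40 genes with a distal site, the highest one exceeded the promoter: Ccne1, Mki67, Foxm1, Ccne2, Aurkb, Gmnn and Tyms. The count sets the highest of all distal sites of a gene beside 1 promoter peak. The same share of all protein-coding genes was not computed, so whether 7 is many or few is not known. At Ccne1 an intergenic site 14298 bp from its nearest start (chr7:38084881-38085260) had 5.93 and 6.44, above the promoter values of 4.59 and 4.50 in both libraries, and held 8 and 10 footprints. The nearest protein-coding start to it is that of Ccne1. At Mki67 an intergenic site 20170 bp away (chr7:135736421-135736640) had 2.54 and 1.47, so it lay above the promoter in replicate 1 and below it in replicate 2. At Aurkb the highest site, 46548 bp away in an intron of the circadian gene Per1, had 4.16 and 7.79, and 4 sites from 3846 to 5286 bp upstream of Aurkb had means of 2.18 to 3.49, all above its promoter mean of 1.26. At Ccne2 and Gmnn the highest sites lay in introns of Trp53inp1 (4.06 and 2.63) and Ripor2 (3.68 and 2.77), whose starts were nearer.

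**Figure D5:**
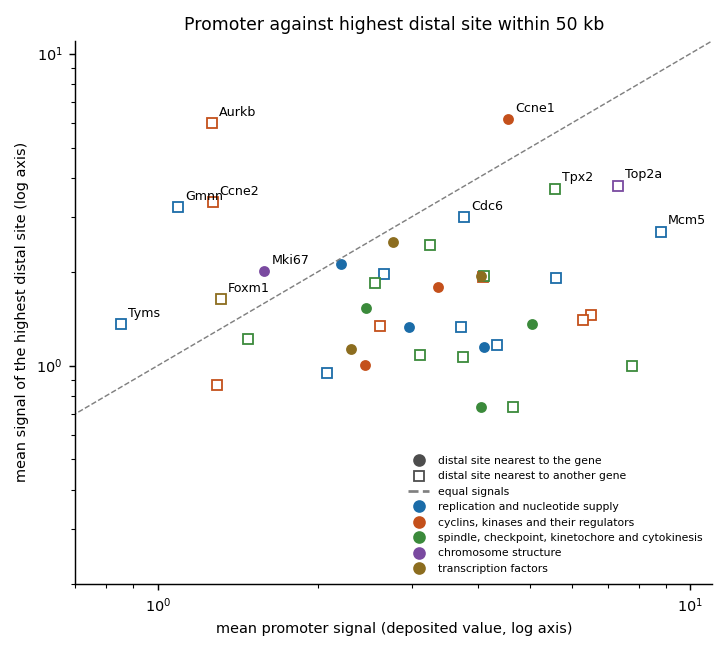
Mean promoter signal (x axis) against the mean signal of the highest distal site within 50 kb (y axis), both on log axes, for the 40 genes with a distal site, coloured by role; filled circles are sites nearest to the gene and open squares sites nearest to another gene. The 7 genes above the dashed line of equal signals have a distal site higher than the promoter, and of these Ccne1 and Mki67 are filled.

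Cell cycle genes outside the list were all accessible as well, with lower promoter signals in most groups. Of 35 further genes 35 had a promoter peak in both libraries, beside 62.7% of all protein-coding genes. CpG-rich promoters were found at 29 of the 35, and 93.5% of all CpG-rich protein-coding promoters were accessible. The median signal of the 35 was 1.94, beside 3.60 for the members and 2.33 for all accessible genes. The median was 1.94 for 9 G1 cyclins and kinases, 2.05 for 16 pocket proteins, E2F partners and DREAM or MuvB subunits, and 1.22 for 7 inhibitors of cyclin-dependent kinases. The 3 genes of the anaphase-promoting complex were higher, with a median of 10.1, including its activator gene Fzr1 with 9.02 and 11.5. Among the inhibitors Cdkn2d reached 8.19 in both libraries, while Cdkn2a had 0.547 and 0.582 and Cdkn2c 0.755 and 0.742. Rb1, the retinoblastoma gene, had 1.32 and 0.821, and E2f3 had 8.60 and 9.83. These genes were picked out after their values were seen.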

How the data were processed

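DNase-seq libraries of 2 animals were analysed from the peak lists, footprints and cleavage segments that the authors deposited per library on mm10, per the labels and file headers. Names of the aligner, peak caller and footprint caller were not given in the sources used here. Of 2 deposited peak lists per library the larger was used. Its signal, the authors' value for peak height, has no stated unit; its values are whole multiples, to within 0.1, of a step of 0.00771 in replicate 1 and 0.00498 in replicate 2, so depth is unknown and no interval for counting error is given. Deposited segments carry a q-value of at most 0.05. Footprints as deposited have 0.01 in every row of their value column, which gives no ranking.

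Genes came from GENCODE M21, and sequence from the C57BL/6J reference GRCm38.p6, whose chromosome lengths fitted the files. The windows, footprint and distal rules are given where used. A distal site is a merged region with a peak of each library. Values per library were given for the 3 highest and 2 lowest genes of each role, genes with a neighbouring start, and those with the most or no distal sites; those of the other members stand beside them, and the distance of motif matches from the start was looked at after the matches were known. Promoters were printed for at most 6 genes, in order of mean signal, leaving out Cdc25c. The members and lists were chosen with earlier results of these data known. The labels do not say how the animals were related, and SDs describe the spread between these libraries. Interval, motif and step functions were tested on simulated data. Python 3.11.15, NumPy 2.4.6, pandas 2.3.3, pysam 0.24.0, SciPy 1.17.1 and Matplotlib 3.10.9 were used. Alternatives varied the peak list, windows, starts, overlap, distal reach, motif window and libraries.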

Additional observations from a re-analysis of the deposited data

How the results depend on the processing

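All 43 promoters stayed accessible with the stricter list, with as many of the highest peaks in both libraries, in windows of 500 or 250 bp, at the most 5′ or only protein-coding starts, by peak midpoints, and in either library alone, and 39 when the peak had to be nearest to an own start. The shares of all protein-coding genes under these settings are not given here, so the counts describe the members only. The median promoter signal was 3.76 with peaks summed, beside 3.38 for all accessible genes, so the difference from them was much smaller than with the highest peak (3.60 beside 2.33). It was 3.39 to 3.53 in either library alone, beside 2.52 and 2.13, and as a percentile among all peaks of a library 95.8, beside 92.1. The mean number of distal sites was 1.74 within 20 kb, 7.77 within 100 kb, 1.40 for sites nearest to the gene, and 4.28 to 7.37 in either library alone. The members stayed above the mean of all protein-coding genes except for sites nearest to the gene (1.57) and in replicate 2 alone, where both were close (7.37 and 7.35). Genes with a CHR, CCAAT or E2F match in a footprint of both libraries numbered 9, beside 3.97% of accessible genes. They numbered 7 (2.75%) from 100 bp before to 50 bp after the start, 9 (4.67%) from 500 bp before to 100 bp after, and 15 (9.94%) when 1 bp of overlap was enough. In either library alone they numbered 14 to 15 (5.34% in replicate 1 and 7.82% in replicate 2). A window at the start nearest to the leading peak, chosen after seeing the data, gave 12 (4.73%). In that window E2f8 also had an E2F match, and Kif20a and Mcm7 a CCAAT match, inside a footprint of both libraries. With or without a footprint, a CHR match was found there in 19 members, a CCAAT match in 35 and an E2F match in 12. The shares of accessible genes were 12.4%, 38.8% and 4.40%. By role, CHR was found in 2 replication genes and 1 transcription factor gene. E2F was found in 8 replication genes and 3 transcription factor genes. All 43 genes kept a footprint in both libraries within 500 bp, and 41 when footprints had to overlap by 50% of both. The same shares of all accessible genes were not computed. Among single genes, the stricter list moved none beyond its SD, and the other windows and starts moved Tk1. The peak nearest to an own start moved Mcm7. It left Aurka and Nusap1 without a value in either library, and Plk1 and Foxm1 without one in replicate 1. Summed peaks raised genes with several peaks, such as Kif20a to 5.98 and 5.51 and Ccne2 to 3.46 and 2.61, chosen as examples after their values were seen. No paired analysis was possible because both libraries belong to 1 group. The unknown scale of the signal, the shorter peak list of replicate 1 and the search of 1 allele limit these values.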
